A study of Rattus norvegicus with 14 samples.

Results

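Cytosolic ribosomal protein genes were taken as every row of the deposited tables whose gene symbol had the form Rpl or Rps with a number (an added a, x, y or l and a further digit allowed), or was Rplp0, Rplp1, Rplp2 or Rpsa. Rows with the -ps ending of pseudogenes were left out. The naming rule uses symbols only, though this group of genes was taken up with earlier results of these data known. It gave 93 of the 30562 rows, 54 of the large and 39 of the small subunit, and 87 different symbols, since Rpl21, Rpl30, Rps6, Rpl22, Rpl35a and Rps13 each stood on a pair of rows. Of these, 84 rows passed the filter on low counts and were tested, 51 large and 33 small.

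The RNA came from lumbar dorsal root ganglia (L2-L5) taken from 7 male wild-type (WT) rats, and each rat gave a library from the surgical side and one from the control side. On the surgical side an extensor digitorum longus muscle had been grafted to the saphenous nerve of that hindlimb, and the control side was the unoperated hindlimb of the same rat. The groups were surgical side at 8 weeks (rats D, C, G and H), control side at 8 weeks (the same 4 rats), surgical side at 6 weeks (rats A, B and E) and control side at 6 weeks (the same 3 rats). All 7 rats carried a graft, so the control ganglia came from operated animals, and the labels gave no strain, age or sham operation. The times were different rats, and the labels gave no extraction or sequencing batch, so any batch that went with the time cannot be told apart from the time.

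Every cytosolic ribosome holds a large (60S) and a small (40S) subunit, each built of ribosomal RNA and a fixed set of proteins present in a single copy, except for the stalk proteins. The messages for these proteins are short and abundant in all cells. In vertebrates most of them start with a C followed by a run of pyrimidines, the 5′ terminal oligopyrimidine (TOP) tract, through which mTOR signalling and the protein LARP1 control their translation together. Sensory neurons of these ganglia also carry such messages into their axons, where local translation takes part in the response to injury.

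To show that feature of the genes, the stretch around the annotated start of transcription is printed for members that the comparisons below turn on, in windows of 40 bases, 15 before the start and 25 from it on. The sequences are from RefSeq (rat, GRCr8), 5′ to 3′ on the strand of the gene, and capitals mark the longest run of at least 5 pyrimidines that touches the 10 bases on either side of the start. Rps27a has a pair of annotated starts.
Rps27a, chr14:107488861-107488900, minus strand: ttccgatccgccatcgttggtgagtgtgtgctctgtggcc
Rps27a, chr14:107488917-107488956, minus strand: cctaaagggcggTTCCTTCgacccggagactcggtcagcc
Rpl31, chr9:49143096-49143135, plus strand: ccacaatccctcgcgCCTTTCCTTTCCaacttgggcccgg
Rps27, chr2:177964582-177964621, minus strand: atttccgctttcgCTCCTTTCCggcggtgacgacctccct
Rpl39, chrX:121195872-121195911, minus strand: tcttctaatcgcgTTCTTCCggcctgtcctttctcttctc
Rpl36a, chrX:102059434-102059473, plus strand: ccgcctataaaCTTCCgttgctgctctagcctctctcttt
Rpl26, chr10:54109677-54109716, plus strand: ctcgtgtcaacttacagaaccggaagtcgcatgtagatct
Rpl22l1, chr2:113683181-113683220, plus strand: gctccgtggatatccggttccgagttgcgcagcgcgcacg
Rplp0, chr12:46718366-46718405, minus strand: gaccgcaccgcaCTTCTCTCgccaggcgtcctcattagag
Rps15, chr7:10068091-10068130, minus strand: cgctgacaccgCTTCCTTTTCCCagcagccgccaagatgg
Rpl10, chrX:157205835-157205874, plus strand: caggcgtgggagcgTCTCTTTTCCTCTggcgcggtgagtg
Rpl3, chr7:113507966-113508005, minus strand: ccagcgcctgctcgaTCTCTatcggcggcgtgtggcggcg
Rpl3l, chr10:14258431-14258470, plus strand: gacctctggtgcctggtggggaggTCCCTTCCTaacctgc
The RefSeq table held 63 starts for 62 symbols of tested members. A transcript beginning with C and 4 further pyrimidines was found at 22 of the 63 starts (34.9%) and at 2.63% of all 33469 promoters in the table. A run of at least 5 pyrimidines within 10 bases of the start was found at 45 (71.4%), against 32.4% of all promoters. The motif CTTTC within 25 bases of the start was found at 32 (50.8%), against 6.39%. Only the strand of the gene was searched, the CTTTC motif can lie inside a pyrimidine run, and no match says only that these letters are not in this window. Among the genes printed, Rpl31, Rps27, Rpl39, Rplp0, Rps15 and Rpl10 began with C and 4 pyrimidines, while Rps27a, Rpl36a, Rpl26, Rpl22l1, Rpl3 and Rpl3l did not at the annotated base.

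Total estimated counts were between 18489118 and 28237574 in the 14 libraries. All 16 sensory neuron markers had counts in every library, as the ganglion label implies, but their summed level spread widely, from 10614 to 29511 TPM in surgical libraries at 8 weeks, from 14719 to 27837 TPM in control libraries at 8 weeks, from 2009 to 18204 TPM in surgical libraries at 6 weeks and from 3129 to 19537 TPM in control libraries at 6 weeks. All 13 skeletal muscle markers had counts in every library, and their sum was 32437 TPM in the surgical library of rat C and 5862 TPM in the control library of rat H, against 16.3 to 1315 TPM in the other 12. The sum of 12 markers of spinal cord and central glia, 3 of which were at 0 in at least 1 library, reached 994 TPM on the surgical side of rat B, against 12.1 to 34.0 TPM elsewhere. The median over all tested members is therefore also given for each comparison without rats B, C and H. In such bulk libraries fewer cells of a type and less RNA per cell cannot be told apart.

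The members were among the most abundant messages of the ganglia. Their summed level was 56488 ± 14328 TPM on the surgical side at 8 weeks (SD, n = 4), 54558 ± 6115 TPM on the control side at 8 weeks (n = 4), 57448 ± 9115 TPM on the surgical side at 6 weeks (n = 3) and 68706 ± 11278 TPM on the control side at 6 weeks (n = 3), in units that sum to the same total in each library. The members span a wide range. There were 68 rows with a mean of at least 100 TPM over the 14 libraries, 11 from 10 to 100 TPM and 14 below 10 TPM, of which 10 were below 1 TPM. The 5 highest single rows were Rps29, a small zinc-binding protein of the 40S subunit, with a mean of 3935 ± 985 TPM (SD over 14 libraries), Rps28 with 2258 ± 460 TPM, Rps15, which reaches towards the decoding site, with 1799 ± 406 TPM, Rps27 with 1649 ± 654 TPM and Rpl32 with 1609 ± 242 TPM. TPM divides by length, and the transcripts of Rps29 and Rps28 were very short, at 0.042 and 0.038 of the median gene. Together with their pseudogene rows, Rpl39 summed to 2486 TPM and Rpl38 to 1882 TPM. The proteins are present in equal numbers in the ribosome, whereas the 68 abundant messages spread up to 3935 TPM.

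**Figure D1:**
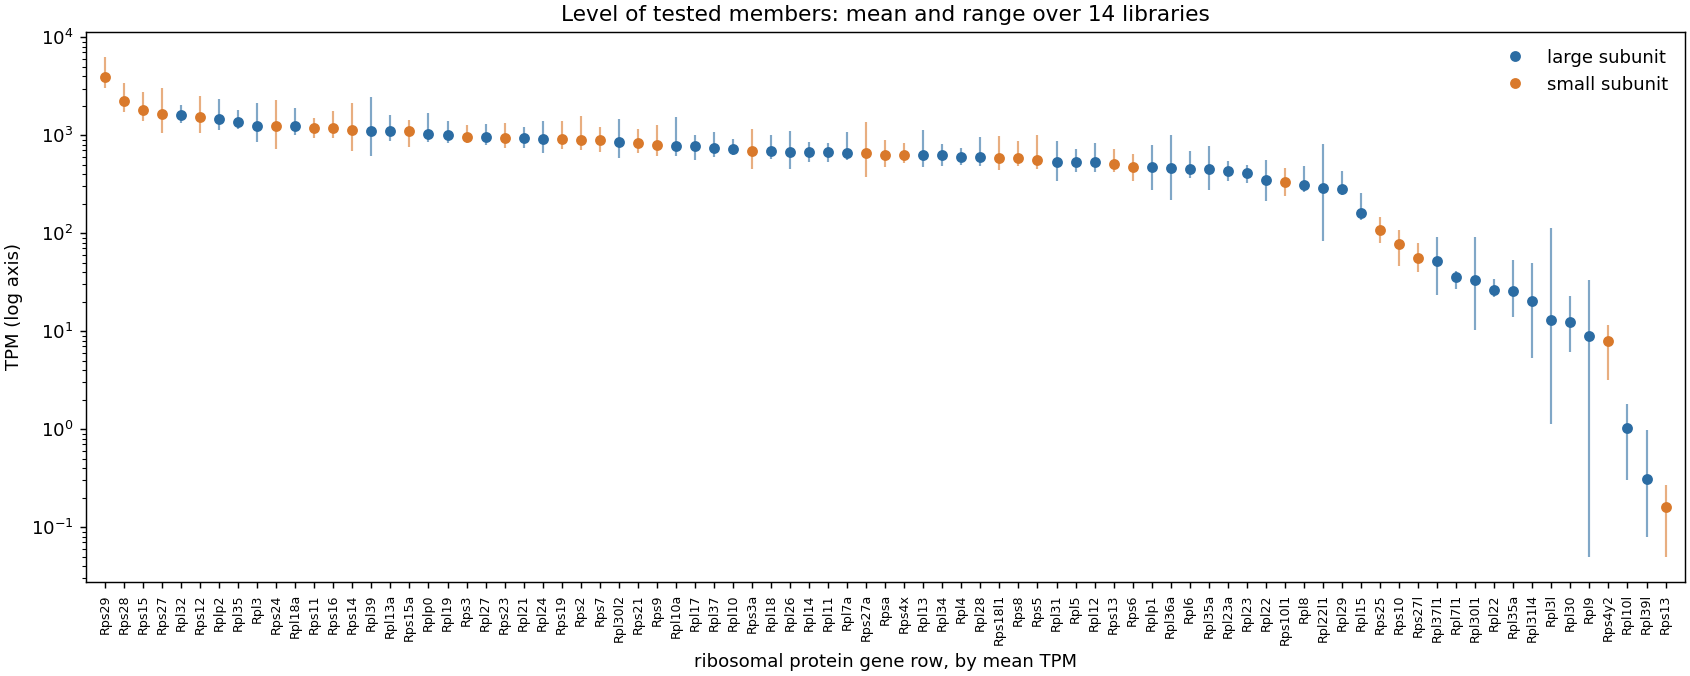
Mean level of 83 of the 84 tested rows (points, TPM on a log axis) with the lowest and highest of the 14 libraries (lines; ends under 0.05 TPM are drawn at 0.05), large subunit in blue and small subunit in orange. Rps29 leads with 3935 TPM, and Rpl3l runs from 1.13 to 112 TPM.

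The 5 lowest rows above 0 were the low rows of Rps13 and Rpl21, at 0.16 and 0.18 TPM, Rps12l3 at 0.28 TPM, Rps19l1 at 0.29 TPM and Rpl39l at 0.31 TPM. For some of the low rows, another row of the same name had most of the TPM. Rps20 was counted 0 in all 14 libraries, while a pseudogene row of the same name, Rps20-ps10, had a mean of 1566 TPM. Rpl38 had a mean of 0.44 TPM, and Rpl38-ps9 had 1864 TPM. The Rpl9 row held 1.09% of the TPM of all rows with that name, and Rpl9-ps30 had 787 TPM. The Rpl30 rows held 1.77% of their family, whose main row was Rpl30l2 with 845 TPM, and Rps10 held 19.0%, with Rps10l1 at 334 TPM. For these families the row that carries the name does not give the level of the message. The 71 pseudogene rows together had a mean of 6728 TPM, and adding them to the members gave 62445 ± 14777 TPM on the surgical side at 8 weeks, 60717 ± 7071 TPM on the control side at 8 weeks, 64675 ± 10138 TPM on the surgical side at 6 weeks and 76724 ± 13724 TPM on the control side at 6 weeks.

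The middle of the 84 tested rows differed from library to library, and single rows departed from it. Each gene's log2 CPM (counts scaled to the size of the library) was set against its own mean over the 14 libraries, and the median over members was then taken in each library. It was highest in the control library of rat B, at 1.02, followed by the surgical library of rat A at 0.67, the control library of rat A at 0.55 and the surgical library of rat C at 0.54. It was lowest in the control library of rat G, at -0.56, and the surgical library of rat H, at -0.53. These 4 highest libraries had the 4 lowest neuronal marker sums, 3129, 2009, 7190 and 10614 TPM, and the surgical side of rat B came next with 10884 TPM and a member median of -0.09. The same 4 also had the 4 highest sums of red blood cell markers (133081, 161106, 154949 and 164650 TPM, against 26761 to 121798 TPM elsewhere), of macrophage markers (396 to 556 TPM, against 194 to 375 TPM) and of fibroblast and endothelium markers (1371 to 4014 TPM, against 373 to 1154 TPM). The part of cell composition in the member levels was not tested beyond the covariate fit given below.

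**Figure D2:**
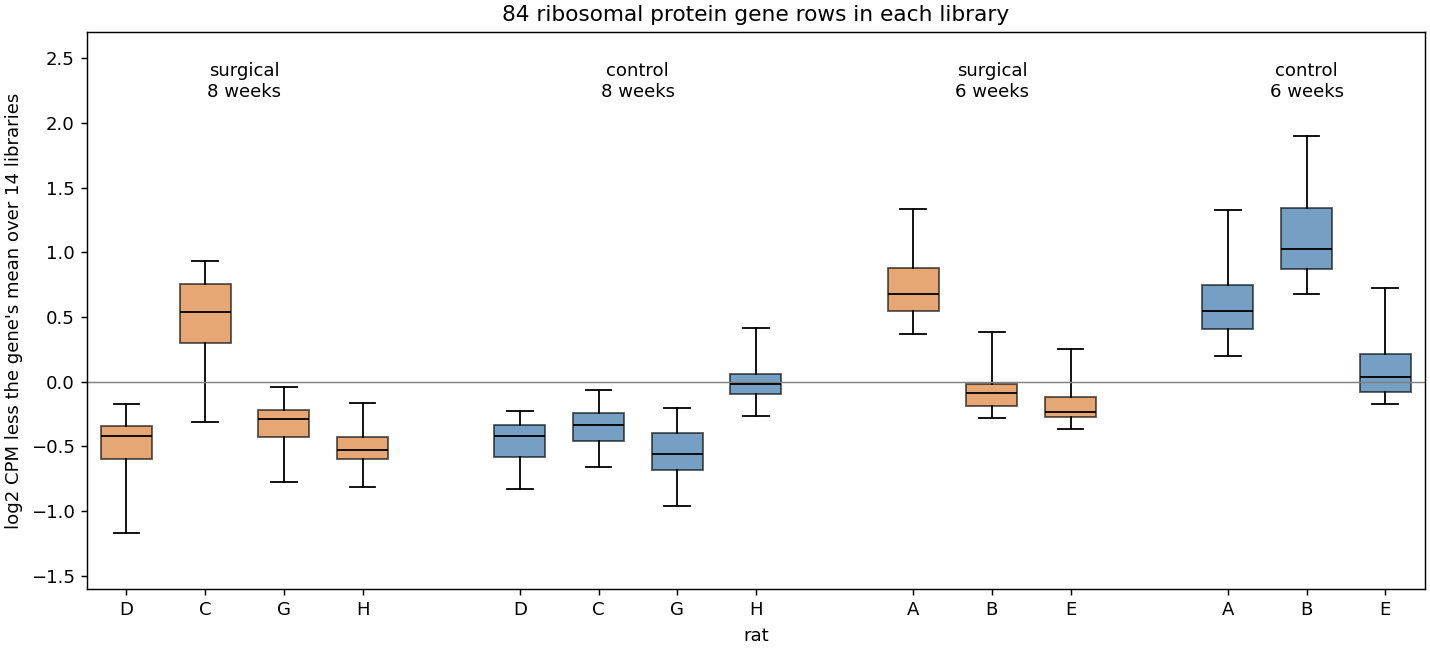
Log2 CPM of the 84 tested rows less each row's mean over the 14 libraries; boxes show the median and quartiles and whiskers the 5th and 95th percentiles over rows, surgical in orange and control in blue. The surgical library of rat C stands above the other surgical libraries at 8 weeks, and the control library of rat B has the highest median, 1.02.

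Over the rows that the naming rule took in, the subunits differed little in summed level. The summed TPM of the large subunit over that of the small subunit was 1.04 ± 0.02 on the surgical side at 8 weeks, 1.04 ± 0.01 on the control side at 8 weeks, 1.02 ± 0.03 on the surgical side at 6 weeks and 0.958 ± 0.049 on the control side at 6 weeks (SD, n = 4, 4, 3 and 3). The lowest single value was 0.906, in the control library of rat B, and the other 13 libraries lay between 0.963 and 1.06. On the control side the values at 8 weeks, 1.03 to 1.06, did not overlap those at 6 weeks, 0.906 to 1.00. Since TPM is scaled by length, this compares summed message levels and not protein. The ratio also depends on which rows carry the names. Abundant rows outside the rule include Rpl38-ps9 (mean 1864 TPM), Rpl9-ps30 (787 TPM), Rpl39-ps10 (636 TPM) and Rpl36al (629 TPM) of the large subunit. For the small subunit they include Rps20-ps10 (1566 TPM). The ratio with such rows added was not taken.

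Surgical and control sides were compared within rats. Over both times no member passed the edgeR test (0 of 84, the lowest adjusted p being 1), as no gene did in the whole table (0%). At an unadjusted p under 0.05 there were 0 members and 412 of 17035 genes (2.42%), and DESeq2 called 0 members and 6 genes (0.0352%). The log2 difference was below 0 for 74 of 84 members (all genes 49.9%), with a median of -0.10 against 0.00 over all genes, -0.07 in the large and -0.11 in the small subunit. The median was 0.09 without rat B, -0.24 without rat C and 0.02 without rats B, C and H, so its sign rests on single rats. The members with the smallest p were Rpl31l4 at -0.55 (SE 0.34) and Rpl22l1 at -0.53 (SE 0.33), and above 0 they were Rpl3l, Rpl39l, Rps18l1, Rpl7l1 and Rpl15, at 0.02 to 0.67.

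Single rats went both ways. The median member difference, surgical minus control in log2 CPM, was -0.01 in rat D, 0.84 in rat C, 0.21 in rat G and -0.50 in rat H at 8 weeks. At 6 weeks it was 0.14, -1.16 and -0.23 in rats A, B and E. The members were higher on the surgical side for 78 of 84 in rat C, 72 in rats G and A each, 40 in rat D, 2 in rats H and E each and 0 in rat B. The neuronal marker sum on the surgical and the control side was 10614 and 24443 TPM in rat C, 29511 and 14719 TPM in rat H, 10884 and 3129 TPM in rat B, then 2009 and 7190 TPM in rat A, 18204 and 19537 TPM in rat E, 23875 and 26859 TPM in rat D and 24439 and 27837 TPM in rat G. The side with the higher neuronal sum had the lower members in 5 of the 7 rats, the exceptions being rats D and E. The large and small subunits went the same way in every rat, with medians of 0.79 and 0.86 in rat C, -1.11 and -1.25 in rat B, -0.48 and -0.54 in rat H.

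**Figure D3:**
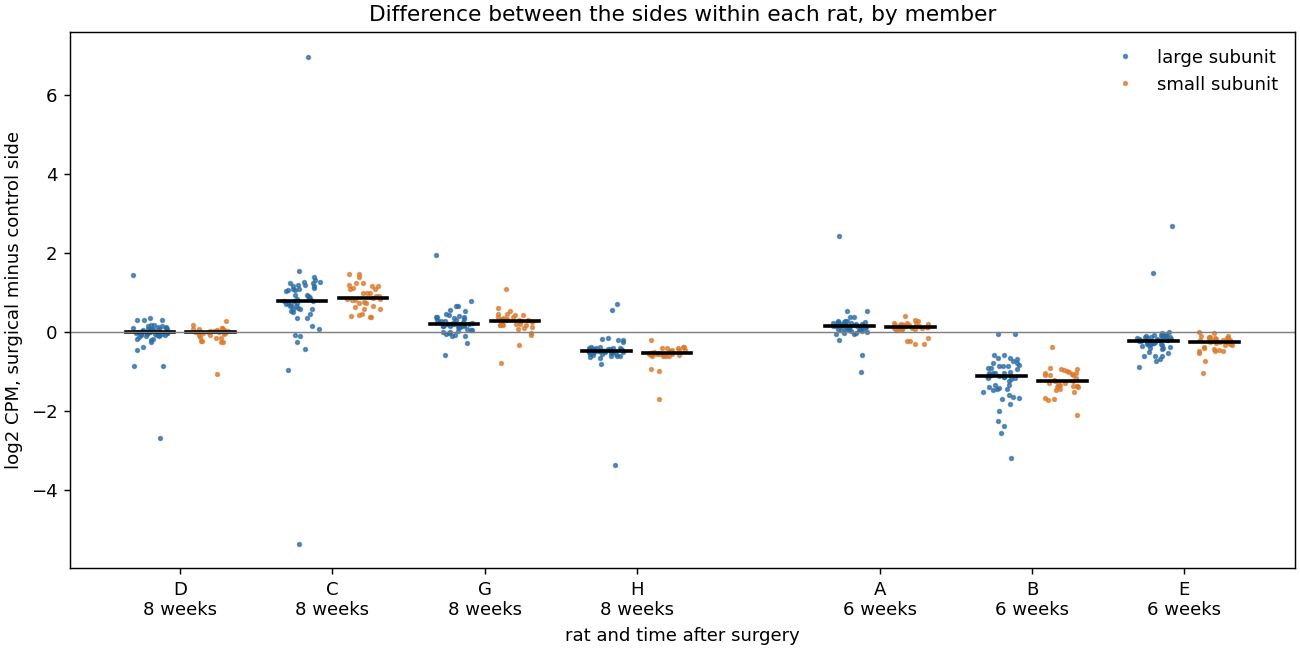
Difference of log2 CPM, surgical minus control side, for each tested row in each rat (points), with the medians of the large (blue) and small subunit (orange) as black bars. Rat C lies above 0 with a median of 0.84 and rat B below 0 with a median of -1.16.

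At 6 weeks the members were lower on the surgical side in the fitted values, without passing the test. The log2 difference was below 0 for 82 of 84 members (all genes 51%), and the median was -0.41 against -0.01 over all genes, -0.38 in the large and -0.46 in the small subunit. No member passed (0%, with 0 genes of the whole table), 1 had an unadjusted p under 0.05 (all genes 3.21%), and DESeq2 called 0 members and 44 genes (0.258%). The value rested on 1 rat of the 3. Without rat B the median was -0.04, without rat A it was -0.71, and without rats B, C and H it was -0.05 against -0.04 over all genes.

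The member with the smallest p at 6 weeks was Rps27a, which is made as a fusion of ubiquitin with a 40S protein. It had 911, 498 and 537 TPM on the surgical side of rats A, B and E, against 1118, 1377 and 1032 TPM on the control side. Every surgical value was under every control value. The log2 difference was -1.12 (SE 0.37), lower in 3 of 3 rats, with an edgeR p of 0.018 before and 0.999 after adjustment over all genes. Next came Rpl30l1 at -0.86 (SE 0.37), Rpl26, which lies near the exit of the peptide tunnel, at -0.87 (SE 0.39), Rps24 at -0.79 (SE 0.36) and Rpl22l1 at -1.07 (SE 0.48), all with an adjusted p of 0.999. Rpl3l and Rpl9 were the only 2 members above 0, at 0.52 (SE 1.44) and 0.07 (SE 1.72).

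At 8 weeks the fitted values lay on the other side of 0. The log2 difference was above 0 for 76 of 84 members (all genes 51%), and the median was 0.15 against 0.01 over all genes, 0.15 in the large and 0.16 in the small subunit. No member passed (0%), none had an unadjusted p under 0.05 (all genes 1.06%), and DESeq2 called none (all genes 0.0235%). Here the sign turned with the rats left out, as the median was -0.10 without rat C, 0.35 without rat H and 0.10 without rats B, C and H. The 5 members with the smallest p above 0 were Rps18l1, Rpl30l1, Rpl22, one of the Rpl35a rows and Rpl15, at 0.22 to 0.34 with SEs of 0.29 to 0.38, and below 0 they were Rpl9, Rps4y2, Rpl37l1, Rpl31l4 and the low Rps13 row, at -0.20 to -1.65. None of these had an adjusted p under 1.

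The change at 8 weeks less the change at 6 weeks was above 0 for 83 of 84 members (all genes 54.7%), with a median of 0.55 against 0.05. No member passed the test of that difference (0%). One member, Rps27a, had an unadjusted p under 0.05 (all genes 1.48%), and DESeq2 called none (all genes 0.0294%). Rps27a stood at 1.19 (SE 0.48), and its edgeR p was 0.041 before and 1 after adjustment over all genes. The median was 0.20 without rat B, 0.84 without rat A and 0.15 without rats B, C and H.

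Of the comparisons made, the median of the members was farthest from 0 between the times on the control side, in ganglia of the unoperated hindlimb. Of 83 members tested there, 82 were lower at 8 than at 6 weeks in the fitted values (all genes 53.5%), with a median of -0.87 against -0.06 over all genes. The median was -0.83 in the large and -0.96 in the small subunit. No member passed the edgeR test (0 of 83), where 25 genes of 16346 did (0.153%, 22 lower and 3 higher), and the lowest adjusted p of a member was 0.0601, of Rps27a. At an unadjusted p under 0.05 there were 74 members, all lower (all genes lower 17.4%). DESeq2 called 58 members, all lower (all genes lower 9.53%). In 44 members each of the 4 values at 8 weeks was under each of the 3 at 6 weeks (all genes 12.9%), 26 in the large and 18 in the small subunit. The count of edgeR calls turned on rat E, whose control library held the lowest members at 6 weeks. Without that rat 71 of 83 members passed, all lower, beside 6388 genes (38.3%, of all genes 15.2% lower and 23.2% higher). The median was -1.02 without rat E, -0.57 without rat B and -0.74 against -0.07 over all genes without rats B, C and H. The neuronal marker sum was 14719 to 27837 TPM in these libraries at 8 weeks and 3129, 7190 and 19537 TPM in rats B, A and E at 6 weeks. Fibroblast and endothelium markers summed to 373 to 1021 TPM at 8 weeks and 1154 to 1831 TPM at 6 weeks, without overlap, and red blood cell markers to 26761 to 103590.0 TPM at 8 weeks and 133081, 154949 and 30844 TPM in rats B, A and E at 6 weeks. The part of these in the result was not tested. With the mean level of the sensory neuron markers alone as a covariate the median was -0.24, and 7 members passed, all lower (all genes lower 0.245%). That fit was chosen after the marker levels were seen.

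The scale matters here. On the TPM scale the members had a median difference of -0.20 on log2(TPM + 1), while all genes had a median of 0.44. The median of the members lay below the all-gene median on both scales, but 15 of 82 members changed sign. Mitochondrially encoded transcripts summed to 194228 ± 24396 TPM on the control side at 8 weeks and to 275811 ± 14287 TPM at 6 weeks (SD, n = 4 and 3), and all TPM values share 1 total. In TPM, 23 of 85 members were lower without overlap at 8 weeks (27.1%, all genes 2.52%) and 1 was higher (1.18%, all genes 35.9%).

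The ubiquitin fusion gene Rps27a had 415, 531, 429 and 522 TPM at 8 weeks (control ganglia, rats D, C, G and H), against 1118, 1377 and 1032 TPM in those of rats A, B and E at 6 weeks. Every value at 8 weeks was under every value at 6 weeks. On counts the log2 difference was -1.98 (SE 0.27), with an adjusted p of 0.0601 in edgeR and 3.1e-09 in DESeq2, and without rat E the edgeR value was 0.0121. The Rps27a row held 72.7% of the TPM of its family of rows, the rest being pseudogenes.

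In the large subunit Rpl39, one of the smallest ribosomal proteins, which lines the peptide tunnel, had 677, 830.2, 648 and 950.2 TPM at 8 weeks, against 1827, 2462 and 1337 TPM at 6 weeks, a log2 difference on counts of -1.97 (SE 0.35). Rpl31 had 367, 397, 398 and 473 TPM at 8 weeks, against 868, 876 and 705 TPM at 6 weeks, and a log2 difference of -1.67 (SE 0.26). Rpl26 had 499, 542, 481 and 607 TPM at 8 weeks, against 1059, 1113 and 932 TPM at 6 weeks, and a log2 difference of -1.62 (SE 0.25). In none of these 3 did the times overlap, and their adjusted p was 0.0785, 0.0659 and 0.0659 in edgeR. Rpl36a, an X-linked gene of the large subunit, had 277, 295, 335 and 354 TPM at 8 weeks, against 772, 996 and 603 TPM at 6 weeks, with a log2 difference of -2.02 (SE 0.31) and no overlap. Rpl31l4, a row named as like Rpl31, had a log2 difference of -2.11 (SE 0.33).

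In the small subunit the zinc-finger protein gene Rps27 had 1129, 1281, 1055 and 1481 TPM at 8 weeks, against 2579.7, 3068 and 1963 TPM at 6 weeks, and a log2 difference of -1.74 (SE 0.31). Rpsa, which is also known as a laminin receptor, had 530.2, 531, 506 and 652 TPM at 8 weeks, against 742, 904 and 722 TPM at 6 weeks, and a log2 difference of -1.20 (SE 0.27). Neither gene overlapped between the times. Rps6, the protein that S6 kinases phosphorylate downstream of mTOR, had 401, 457, 340.2 and 546 TPM at 8 weeks, against 500.4, 646 and 393 TPM at 6 weeks. Its values overlapped, with a log2 difference of -0.87 (SE 0.33). Rps4x, an X-linked member, had a log2 difference of -0.71 (SE 0.29) with overlap, and Rps15 one of -0.98 (SE 0.27).

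The 3 stalk genes, whose proteins draw elongation factors to the large subunit, differed among themselves in size. Rplp1 had 391, 382, 376 and 474 TPM at 8 weeks, against 569, 791 and 509.8 TPM at 6 weeks, with no overlap and a log2 difference of -1.30 (SE 0.30). Rplp0 had 966 ± 122 TPM at 8 weeks (SD, n = 4) and 1087 ± 118 TPM at 6 weeks (n = 3), with overlap and a log2 difference of -0.83 (SE 0.27). Rplp2 had 1461 ± 40.3 TPM at 8 weeks and 1517 ± 205 TPM at 6 weeks, and a log2 difference of -0.72 (SE 0.23) on counts, which was 0.07 once the length trend was removed. No test of the difference between these genes was made.

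Rpl5 and Rpl11, which join the 5S RNA and bind Mdm2 when ribosome assembly is disturbed, stayed close to the middle of the members. Rpl5 had 508 ± 85.8 TPM at 8 weeks and 576 ± 77.9 TPM at 6 weeks, with a log2 difference of -0.85 (SE 0.28), and Rpl11 had 629.6 ± 106 TPM and 738 ± 90.2 TPM, with -0.91 (SE 0.26). Relative to the median of all members in the same library, Rpl11 and Rpl5 were among the steadiest rows, with an SD over the 14 libraries of 0.07 and 0.08 in log2 CPM. The least steady were Rpl9 with 2.46, Rpl3l with 1.52, Rpl39l with 0.89, Rpl22l1 with 0.83 and Rpl10l with 0.77. Most of these rows had low counts in some or all libraries. Counts ran from 0 to 406 for Rpl9, 1 to 18 for Rpl39l and 15 to 76 for Rpl10l. They ran from 22 to 2865 for Rpl3l and from 602 to 6765 for Rpl22l1. The part of low counts in these SDs was not tested.

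Rpl3, which sits close to the peptidyl transferase centre, had 1359, 2148, 1122 and 1303 TPM on the surgical side at 8 weeks, against 923, 987 and 993 TPM at 6 weeks. On the control side it had 1293, 1304, 1734 and 1436 TPM at 8 weeks, against 877, 847 and 1027 TPM at 6 weeks. In TPM the values at 8 weeks were above those at 6 weeks on both sides, without overlap. On counts, however, the log2 difference on the control side was -0.36 (SE 0.21), with an adjusted p of 0.248 in edgeR. On log2(TPM + 1) it was 0.65, and limma called Rpl3 higher at 8 weeks with an adjusted p of 0.0495. On log2(TPM + 0.1) limma did not call Rpl3, with an adjusted p of 0.0544. Its direction thus depends on the scale. The median over all genes was -0.06 on counts and 0.44 on log2(TPM + 1). The transcript length of Rpl3 behind the TPM values, relative to the median gene, was 0.209 at 8 weeks and 0.267 at 6 weeks on the control side, a ratio of 0.785 where the median ratio of 79 members was 1.01. Rpl10, which joins the large subunit late in its assembly, also turned with the scale, at -0.45 (SE 0.24) on counts and 0.20 on log2(TPM + 1).

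On the surgical side the median of the members was closer to 0. The log2 difference was below 0 for 81 of 84 members (all genes 49.5%), with a median of -0.25 against 0.01, -0.24 in the large and -0.26 in the small subunit. No member passed (0%), the lowest adjusted p was 0.671 in edgeR, 6 members had an unadjusted p under 0.05, all lower (all genes lower 4.88%), and DESeq2 called none (all genes 0.0482%). The groups did not overlap in 5 members, all lower at 8 weeks (all genes 5.25%), among them Rpl22l1, Rpl39, Rpl31l4 and one of the Rpl35a rows. The median was -0.59 without rat C, 0.05 without rat A and -0.63 against -0.05 over all genes without rats B, C and H. On log2(TPM + 1) it was 0.02, against 0.21 over all genes, and with the neuronal markers as a covariate it was 0.24, against 0.00 over all genes. The difference between the sides is the interaction given above, which no member passed.

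**Figure D4:**
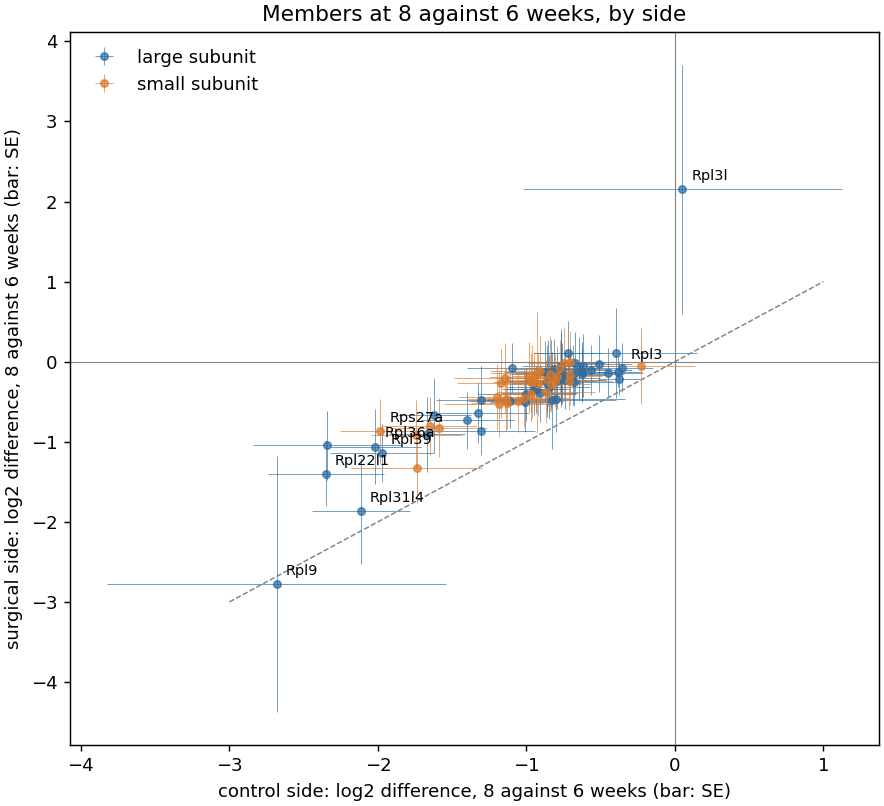
Fitted log2 difference between 8 and 6 weeks of each tested row on the control side (horizontal) and the surgical side (vertical), with SE bars, large subunit in blue and small in orange; the dashed line marks equal values. Most rows lie left of 0 and above the line, with medians of -0.25 (surgical) and -0.87 (control).

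On that side Rps27a had 371, 505, 495 and 441 TPM at 8 weeks in the rats in the order above, against 911, 498 and 537 TPM in rats A, B and E at 6 weeks. The ranges touched, since rat C at 8 weeks was above rat B at 6 weeks, and the log2 difference was -0.86 (SE 0.40). Rpl39 had 608, 903, 665 and 780.3 TPM at 8 weeks, against 1702, 1070.1 and 1132 TPM at 6 weeks, without overlap, and a log2 difference of -1.14 (SE 0.36) with an adjusted p of 0.671.

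Members with a paralogue were compared with it. Rpl22l1 and Rpl22 bind the same site of the ribosome. Rpl22l1 had 147, 82.7, 192 and 210.0 TPM on the surgical side at 8 weeks, against 433, 214 and 298 TPM at 6 weeks, and 127, 222, 176 and 219 TPM on the control side at 8 weeks, against 523, 813 and 403 TPM at 6 weeks. Neither side overlapped between the times. The log2 difference was -1.40 (SE 0.40) in surgical and -2.35 (SE 0.39) in control ganglia, with adjusted p of 0.671 and 0.074 in edgeR. The abundant Rpl22 row had 249, 306, 212 and 376 TPM on the control side at 8 weeks, against 431, 565 and 336 TPM at 6 weeks, and a log2 difference of -1.33 (SE 0.35).

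In the surgical library of rat C the pair went opposite ways. Rpl22l1 had its lowest value of the 14 libraries there, 82.7 TPM, and Rpl22 was at 417 TPM, above the 264, 279.8 and 274 TPM of the other surgical libraries at 8 weeks. The same library carried the muscle markers named above.

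Rpl3l is the muscle counterpart of Rpl3, known in mice and humans for its place in the ribosomes of skeletal muscle and heart. It had 2.18, 112, 5.53 and 2.23 TPM on the surgical side of rats D, C, G and H, against 3.23, 1.13, 1.48 and 21.7 TPM on the control side, and 5.82, 7.44 and 6.74 TPM on the surgical side of rats A, B and E, against 5.47, 4.99 and 2.19 TPM on the control side. Its 2 highest libraries, the surgical one of rat C and the control one of rat H, were the 2 with the highest muscle marker sums. The log2 difference between sides was 0.67 (SE 1.03) over both times. Between the times on the surgical side it was 2.15 (SE 1.56), and -1.35 without rat C.

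Other paralogues had lower levels. Rps27l, a paralogue of Rps27, had 51.7 ± 12.4 TPM on the control side at 8 weeks and 67.4 ± 12.8 TPM at 6 weeks, with a log2 difference of -1.06 (SE 0.31). Rpl7l1 had 38.0 ± 2.91 TPM at 8 weeks and 32.3 ± 4.97 TPM at 6 weeks, and -0.38 (SE 0.14) on counts but 0.24 on log2(TPM + 1). Rpl10l and Rpl39l, which in mice and humans are known from the testis, had means of 1.04 and 0.31 TPM over the 14 libraries.

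Members are short, and differences in this series went with transcript length. The length was taken relative to the median gene from the ratio of count to TPM. The tested members had a median relative length of 0.220, at percentile 4.91 of all genes with a length, and 64 of them lay under the 10th percentile. Across genes, the Spearman correlation of length with the log2 difference, which describes genes of the same libraries and not replicates, was 0.405 between the sides at 6 weeks, -0.02 between the sides at 8 weeks, 0.215 between the times on the control side and 0.00 between the times on the surgical side.

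Set against other genes of like length, the members were still lower on the control side. Between the 2nd and 5th percentiles of length, 34 members had a median of -0.91 and 436 other genes one of -0.56. Between the 5th and 10th percentiles, 20 members had -0.82 and 766 other genes -0.33, and between the 10th and 20th percentiles 10 members had -0.89 and 1568 other genes -0.19. With the trend of level on length removed in each library, the median of the members was -0.42, and 6 of 82 members changed sign. Between the sides, that removal changed the sign of 13 of 82 members at 6 weeks and of 35 of 82 over both times. At 6 weeks between the sides the same 34 members had -0.40 and 443 other genes -0.33, the 20 members of the next class had -0.35 and 776 other genes -0.28, and the 10 members between the 10th and 20th percentiles had -0.39 and 1581 other genes -0.18. Whether length acts through the RNA, the library or the quantification was not tested.

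**Figure D5:**
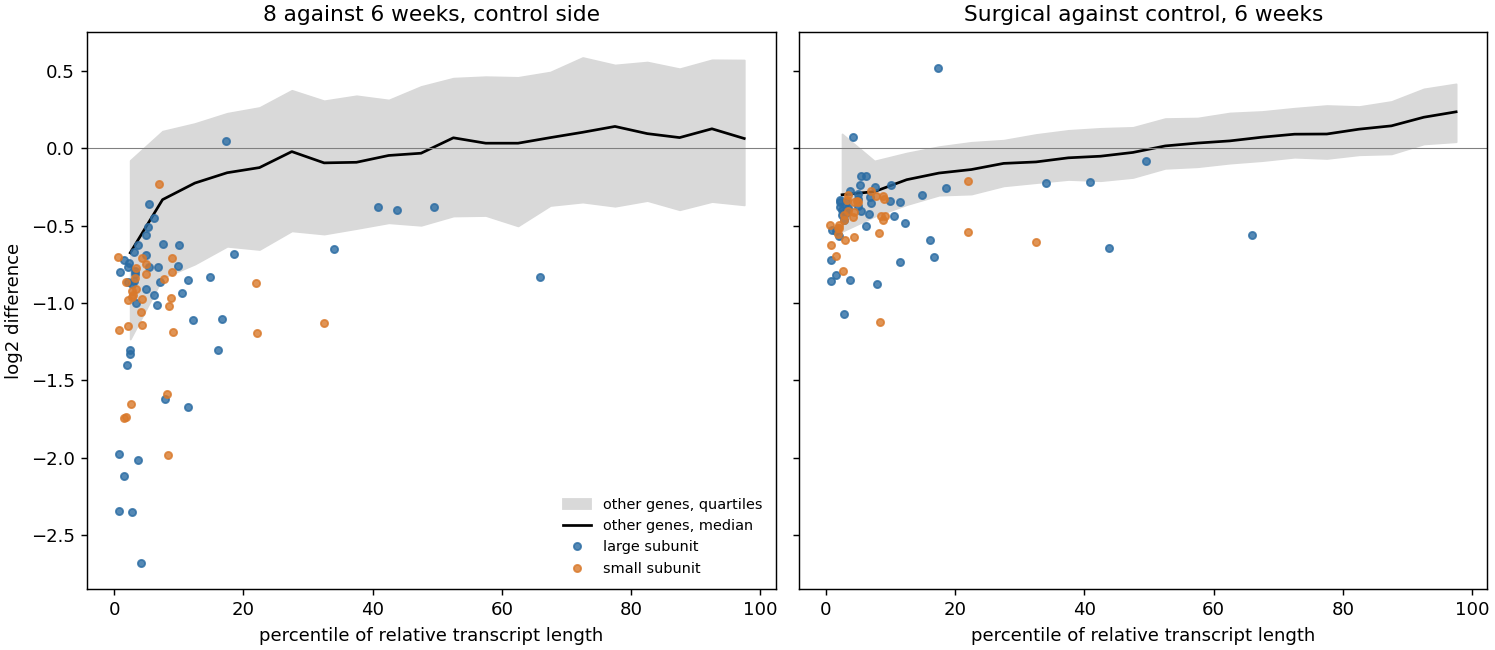
Log2 difference of each tested member with a length (points, large subunit blue, small subunit orange) against the percentile of relative transcript length; the line and band give the median and quartiles of other genes. On the left (8 against 6 weeks, control side) most members lie under the band or in its lower part. On the right (surgical against control at 6 weeks) most also lie in its lower part or under it, closer to the line.

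Other genes of the translation machinery were read from lists. Genes outside these names whose messages also carry a TOP tract include translation factors and the fusion gene Fau (a ubiquitin-like protein with Rps30). On the control side, 17 of 21 were below 0 at 8 against 6 weeks (all genes 53.5%), with a median of -0.53. Of these 21, 0 passed, and 9 had an unadjusted p under 0.05, all lower (all genes lower 17.4%). Fau had a log2 difference of -1.23 (SE 0.31), with an adjusted p of 0.0954 in edgeR. Between the sides at 6 weeks the 21 had a median of -0.23, and at 8 weeks one of 0.10.

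The factors that assemble ribosomes lay near the median of all genes. Of 39 ribosome biogenesis genes, 24 were below 0 on the control side at 8 against 6 weeks (all genes 53.5%), with a median of -0.06, the same as over all genes, and none passed. Polr1d, a subunit of RNA polymerases I and III, had -0.55 (SE 0.14) and Nip7, a 60S assembly factor, -0.83 (SE 0.24), with adjusted p of 0.0965 and 0.107. Of 20 genes of TOR and growth signalling, 7 were below 0 (all genes 53.5%) with a median of 0.23 and none passed. Rictor, a subunit of mTOR complex 2, had 0.91 (SE 0.23) and Tsc1, an upstream inhibitor of mTOR complex 1, 0.84 (SE 0.22), with adjusted p of 0.0951 and 0.0983. Between the sides at 6 weeks Rictor had 0.98 (SE 0.28), with an edgeR p of 0.0092 before and 0.999 after adjustment.

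Nuclear-encoded subunits of the respiratory chain, another group of short messages, had 40 of 49 below 0 on the control side at 8 against 6 weeks (all genes 53.5%), with a median of -0.15. There 4 passed, all lower (all genes 0.153% in either direction). Ndufa6 fell by 1.33 (SE 0.13), Cox7b by 1.47 (SE 0.17), Atp5mg by 1.37 (SE 0.16) and Atp5f1e by 1.80 (SE 0.22) on the log2 scale, with adjusted p of 0.0344, 0.0344, 0.0344 and 0.0354 in edgeR. Between the sides at 6 weeks the median of the respiratory chain genes was -0.39, close to the -0.41 of the ribosomal protein genes. Of the 50 tested there, 49 were below 0 (all genes 51%) and 19 had an unadjusted p under 0.05 (all genes 3.21%). Cox7b had -1.22 (SE 0.19) and Ndufa4 -1.03 (SE 0.19), with adjusted p of 0.999. DESeq2 called 11 of the 50 in that comparison (all genes 0.258%), and no ribosomal protein gene.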

How the data were processed

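RNA was sequenced from 14 libraries, 1 from each side of 7 rats. The labels call the molecule polyA RNA, yet their protocol text names an NEB ribosomal depletion step. Both are given as found. For each gene the authors deposited an estimated count and a TPM value. FastQC, Trim Galore, Salmon and DESeq2 were used, per the submitters' processing notes; versions, genome build and strand setting are not given in the sources used here, so overlapping or antisense genes cannot be told apart from members. Estimated counts were whole as deposited (0 with a fraction), and the TPM values made by the authors share 1 total per library. Title letters named the rats (C and D are exchanged in the library names, with pairs intact), and the surgical library of rat C, titled replicate 1, was used as replicate 2.

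Counts were tested with edgeR 4.0.16 (R 4.3.3): filterByExpr with a minimum count of 10, TMM scaling and quasi-likelihood with robust dispersion, fitted over all genes, p-values two-sided and Benjamini-Hochberg adjusted over all genes tested, with a threshold of 0.05. Sides were compared with the rat as a block (6 residual degrees of freedom over both times, 5 at each time), and times between rats in 7 libraries of 1 side (5 degrees of freedom). The pairing comes from the animal: the deviations of a rat's libraries from their group means correlated at 0.26, -0.12, 0.75, -0.09, -0.41, 0.13 and -0.31 in rats A, B, E, D, C, G and H. Rats are separate animals. Between the sides, p-values measure how the difference within a rat varies from rat to rat. Between the times, they measure the spread between rats. Log2 CPM used a prior count of 2. Lengths came from genes with at least 20 counts in 3 libraries. Alternatives used DESeq2 1.42.0, limma 3.58.1 on log2(TPM + 1) or log2(TPM + 0.1) (genes with at least 0.5 TPM in 3 libraries), a lowess length trend with span 0.3, other filters and scalings, and left-out rats. The edgeR test was also run on simulated counts, for the sides over both times and for the times on the control side. Those counts were drawn without rat effects, differences in cell composition or a length trend. The run therefore does not cover these features of the data, and its outcome is not given here.

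The members and lists were chosen with earlier results of these data known, so no list was given a p. Genes were named by rule: members with set roles, paralogue pairs, the 5 smallest p per direction and comparison, the 5 highest and lowest levels, the 5 most variable members and, of other lists, those past the threshold or the 2 with the smallest p. Rps24 and Rps15 follow from it, Rps10, Rps20, Rpl38 and Rpl30 were named for their copies after their values were seen. Promoter sequences came from RefSeq (GRCr8), matched by symbol. A few genes that the rule names are not reported here. Canonical ribosomal protein genes without a row under the naming rule were not analysed here.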

Additional observations from a re-analysis of the deposited data

Results flagged for a closer look

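Values in groups of 4 libraries were checked for a library far from the other 3, by the gap to its nearest neighbour as a share of the group's range (Dixon's test). Of 82 such groups 18 passed, while chance flags about 1 in 20, and the groups share libraries and are not independent.

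Most were the surgical library of rat C at 8 weeks, which was the highest of its group. The summed level of the members there was 77785 TPM, against 46920 to 51619 TPM in rats D, G and H. The large subunit summed to 39218 TPM and the small to 38566 TPM. Among single members Rplp0 had 1685 TPM, Rps4x 835 TPM, Rpsa 815 TPM, Rpl26 756 TPM, Rpl5 731 TPM, Rpl31 554 TPM, Rpl22 417 TPM, Rpl15 258 TPM, Rpl3l 112 TPM and Rps27l 66.5 TPM. That library also had a skeletal muscle marker sum of 32437 TPM, a Schwann cell marker sum of 1473 TPM against 5151 to 7226 TPM in the other surgical libraries at 8 weeks, a red blood cell sum of 164650.0 TPM against 32796 to 85643 TPM, a fibroblast and endothelium sum of 4014 TPM against 519 to 699 TPM, a macrophage sum of 484 TPM against 194 to 237 TPM, a sum of T, B and NK cell markers of 470 TPM against 64.2 to 173 TPM, and a neuronal sum of 10614 TPM against 23875 to 29511 TPM. Their part in the member levels was not tested.

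On the control side at 8 weeks the library of rat H, with a muscle marker sum of 5862 TPM, was the highest for Rpsa at 652 TPM, Rplp1 at 474 TPM and Rpl3l at 21.7 TPM. Rpl10l was lowest in the surgical library of rat G, at 0.39 TPM, and Rpl9, whose row holds little of its family's TPM, was highest in the surgical library of rat H, at 11.6 TPM.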

How the results depend on the processing

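No member passed the edgeR threshold between the sides or between the times on the surgical side under any alternative run. Between the times on the control side 0 of 83 passed, and 58 with DESeq2, 13 of 85 on log2(TPM + 1) (all genes 0.891% lower and 18% higher), 7 with neuronal markers as a covariate (chosen after seeing the data), 1 of 91 without a filter (all genes 0.125%) and 71 without rat E, all lower but 1 of the 13, Rpl3 (0 to 71 over left-out rats). On log2(TPM + 0.1) limma called 0 of 85 (all genes 0.086%), so the calls on TPM depended on the value added. The median between the times on the control side, -0.87, was -0.20 on log2(TPM + 1), -0.21 on log2(TPM + 0.1), -0.42 with the length trend removed, -0.24 with the covariate and -1.02 to -0.57 over left-out rats. On log2(TPM + 1) the all-gene median shifted to 0.44 there, 0.16 between sides at 6 weeks, -0.10 at 8 weeks, -0.23 in their difference and 0.21 between times on the surgical side. The other causes of these moves were not tested. Medians over left-out rats were -0.24 to 0.09 between the sides, -0.71 to -0.04 at 6 weeks, -0.10 to 0.35 at 8 weeks, 0.20 to 0.84 for their difference and -0.59 to 0.05 between times on the surgical side. Without the replicate block the 3 medians between sides were -0.06, -0.42 and 0.20, their difference was 0.62, and no call changed.

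The large minus the small subunit median was 0.13 between times on the control side, -0.048 with the length trend removed and 0.063 without rats B, C and H (0.07 to 0.16 over left-out rats). It was 0.01 on the surgical side, 0.10 without rats B, C and H (-0.016 to 0.10). Between the sides it was 0.00 to 0.05 over left-out rats, 0.05 to 0.11 at 6 weeks, -0.03 to -0.01 at 8 weeks and -0.12 to -0.025 for their difference.

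Over all members, 57 of 84 changed sign between the sides without rat B, 69 of 84 at 8 weeks without rat C, and between times on the surgical side 47 of 84 without rat A and 65 of 84 with the covariate. On either TPM scale 15 of 82 changed sign between times on the control side and 40 of 82 on the surgical side. Between the sides at 8 weeks 29 of 82 did so on TPM. With the covariate 9 of 83 changed sign between times on the control side. Among the members named, none called by edgeR, signs changed as follows. Between times on the control side Rpl3 turned to 0.65 on either TPM scale, 0.084 with the length trend removed and 0.044 with the covariate. Rpl10 turned to 0.20 on TPM and 0.073 with the covariate, Rpl7l1 to 0.24 and the low Rpl22 row to 0.23 on log2(TPM + 1) (0.24 with 0.1 added to both), and Rpl10l to 0.12 and 0.16 on TPM and 0.45 with the covariate (-0.62 to 0.18 over left-out rats). Rplp2 turned to 0.070 with the length trend removed. Rpl3l turned to -0.069 and -0.22 on TPM, -0.66 with the length trend removed and -1.29 without rats B, C and H (-1.84 to 0.41 over left-out rats). Between times on the surgical side Rpl3l turned to -0.076 with the length trend removed and -1.09 without rats B, C and H (-1.35 to 2.54), Rplp2 to -0.30 without those rats (-0.29 to 0.40) and Rpl10l to -0.12 with the covariate (-0.21 to 0.39). Between sides over both times the covariate gave -0.12 for Rpl39l (-0.28 to 0.69 over left-out rats), -0.063 for Rps18l1 (-0.15 to 0.29), -0.00151 for Rpl7l1 (-0.035 to 0.073) and -0.045 for Rpl15 (-0.16 to 0.15). At 6 weeks Rpl9 was -0.50 without the replicate block and -0.070 with the covariate (-1.43 to 1.54). At 8 weeks Rpl30l1 was -0.00748 with the length trend removed, the low Rps13 row 0.042 without rats B, C and H and 0.11 without the block (-0.59 to 0.31), and left-out rats gave -0.0093 to 0.64 for Rps18l1 and -0.10 to 0.46 for Rpl15. Totals of 18489118 to 28237574 counts limit only the rows below about 1 TPM.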
